A study of Mus musculus with 2 samples.

Results

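The collagen genes of the mouse heart were examined in 1 Control library and 1 PD-1 inhibitor library of single-nucleus RNA-seq. A gene was taken when its symbol has the form Col, number, a, number and when both libraries together hold at least 50 of its unique molecular identifiers (UMIs, each standing for 1 captured RNA molecule). Of 44 genes with such a symbol 35 passed, namely 10 of 11 fibrillar chains, 8 of 8 basement membrane chains and 17 of 25 others. The table lists 32589 genes in all, of which 14524 hold at least 50 UMIs. Col6a5, with 50 UMIs, lay just inside the limit, and Col7a1, with 42, just outside it. The other genes left out are Col9a1 with 36 UMIs, Col28a1 with 35, Col22a1 with 19, Col9a2 with 14, Col17a1 with 11, Col2a1 and Col6a4 with 8 each, and Col10a1 with 0.

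All mice were C57BL/6 males, 8 weeks old when treatment began. Mice of the PD-1 inhibitor group received anti-mouse PD-1 antibody into the peritoneum at 5 mg/kg on days 1 and 14 of a cycle of 28 days, and Control mice received PBS at the same times. The sources used here do not give how many hearts went into a library, and no allele or transgene is named for either group. With 1 library per condition there is no replicate, so no test was made between conditions, and no value below tells how much hearts of 1 group differ.

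Collagens are secreted proteins in which 3 chains wind into a triple helix. Fibrillar collagens, mainly types I and III in the heart, form the fibres that carry tension between muscle cells. Type IV collagen forms the sheet-like network of basement membranes under vessels and around cardiomyocytes, with types XV and XVIII attached to it. Cardiac fibroblasts make most of the fibrillar collagen, while endothelial cells (ECs), pericytes and smooth muscle cells build their own basement membranes. The study asked how PD-1 inhibition shifts collagen between the interstitium and the vessels, so the comparison of interest is which cells hold collagen RNA and whether that RNA differs between the libraries.

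Nuclei were grouped by clusters formed without any collagen gene and named by markers that include no collagen gene, so a name such as fibroblast stands for fibroblast-like, a cluster in which at least 3 listed markers of that type were detected. Of 21 clusters 20 were named, and 1 of cycling nuclei was not. After 632 and 333 doublets and 83 and 15 nuclei rich in mitochondrial RNA were left out, 9482 Control and 7619 PD-1 inhibitor nuclei remained, with a median of 1013 and 1055 UMIs. Fibroblasts numbered 2464 and 1967, ECs 2801 and 2510, mural cells (pericytes and smooth muscle) 588 and 415, mesothelial cells 477 and 458, and cardiomyocytes 1273 and 1081. The 2 libraries share 48 barcodes. A level is given as CPM, the UMIs of the gene in all nuclei of a cell type per 1000000 UMIs of that cell type in that library, and the library of the PD-1 inhibitor group is called the treated library. These levels are not corrected for gene length, so levels are compared between cell types for the same gene and not between genes. A log2 ratio is PD-1 inhibitor over Control after 0.5 UMI was added to each sum, and its 95% interval covers counting error only. Ratios were read for genes with at least 50 UMIs in the cell type, and a log2 ratio beyond 0.32 in either direction is described as past the fold. Of the 35 genes, 31 met this minimum in at least 1 of 5 cell types, and Col9a3, Col24a1, Col6a5 and Col11a2 did not.

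The study measured Col1a1 and Col3a1 by qRT-PCR and reported both lower in whole hearts of the PD-1 inhibitor group. That is another measure than the nuclear RNA summed by cell type below. Its mouse primers are shown because they mark the stretches of both genes that the study's own assays read. In GENCODE vM21 on GRCm38, the Col1a1 primer labelled reverse lies on the sense strand at chr11:94936367-94936387 in exon 1 of 51, across the end of the 5′ UTR and the start of the coding sequence. Its partner, labelled forward, is the reverse complement of chr11:94937922-94937941 in coding exon 2, and the product is 110 bases of spliced RNA.
Col1a1 primer labelled forward: taggccattgtgtatgcagc
Col1a1 primer labelled reverse: acatgttcagctttgtggacc
Col3a1 forward: ctgtaacatggaaactggggaaa
Col3a1 reverse: ccatagctgaactgaaaaccacc
The Col3a1 primers both lie in coding sequence, the forward primer at chr1:45347175-45347197 in exon 49 of 51. The reverse primer spans the junction of exons 49 and 50 between chr1:45347296 and chr1:45347646, and the product is 144 bases. Nuclear RNA holds unspliced transcripts as well, so the UMI counts of the nuclei are not limited to such spliced stretches.

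Promoter sequence is shown for Col3a1, the gene with the most collagen UMIs, and for the gap between Col4a4 and Col4a3, which lie head to head and are described together further on. Both were read from the RefSeq promoter windows on GRCm38.p6, which cover 28 of the 35 genes and hold no entry for Col4a3, Col1a1, Col5a2, Col14a1, Col12a1, Col26a1 or Col9a3. The capitals mark the motif TATAAA, which begins 117 bases before the Col3a1 start. The window is chr1:45311288-45311537 on the plus strand, and its GC content is 35.2%.
Col3a1, 250 bases before the start: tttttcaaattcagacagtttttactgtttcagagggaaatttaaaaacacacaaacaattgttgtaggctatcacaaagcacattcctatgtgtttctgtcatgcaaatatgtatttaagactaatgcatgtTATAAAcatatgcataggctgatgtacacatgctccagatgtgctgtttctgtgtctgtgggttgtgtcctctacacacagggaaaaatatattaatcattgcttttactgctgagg
Col4a4 to Col4a3, 71 bases: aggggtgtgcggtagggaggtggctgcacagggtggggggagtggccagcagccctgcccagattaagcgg
The second stretch is chr1:82586850-82586920, written along the minus strand from which Col4a4 is read, and its GC content is 69.0%. Of 32851 windows of all genes, 12.4% hold TATAAA on either strand, 33.8% hold CCAAT and 32.7% hold GGGCGG. Of 30 windows of the collagen genes, 3 hold TATAAA, 9 hold CCAAT and 19 hold GGGCGG. The 71 bases between Col4a4 and Col4a3 hold none of the 3 motifs, which says only that these letters are not in this gap.

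The collagen genes held 75226 UMIs of the Control and 64320 of the treated library, which is 0.571% and 0.591% of all UMIs. Col3a1 had the most with 28161 in both libraries, followed by Col1a2 with 12566, Col4a1 with 11410, Col15a1 with 11059 and Col1a1 with 9375. Fibroblasts held 67.6% of the collagen UMIs of kept Control nuclei and 66.2% of those of PD-1 inhibitor nuclei, and 36.4% and 43.8% when variable genes were not scaled before clustering, a setting under which the Rgs17 fibroblast cluster stayed unnamed. For fibrillar chains the fibroblast share was 73.6% and 69.8%, for basement membrane chains 54.4% and 55.1%, and for the others 74.0% and 72.6%. ECs held 21.3% and 23.0% of the basement membrane UMIs but 7.08% and 7.84% of the fibrillar UMIs. Mesothelial cells held 9.56% of the Control fibrillar UMIs and 14.3% of the treated ones. The mesothelial nuclei were 5.03% and 6.01% of all kept nuclei, and their median depth was 1302 and 1728 UMIs.

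**Figure D1:**
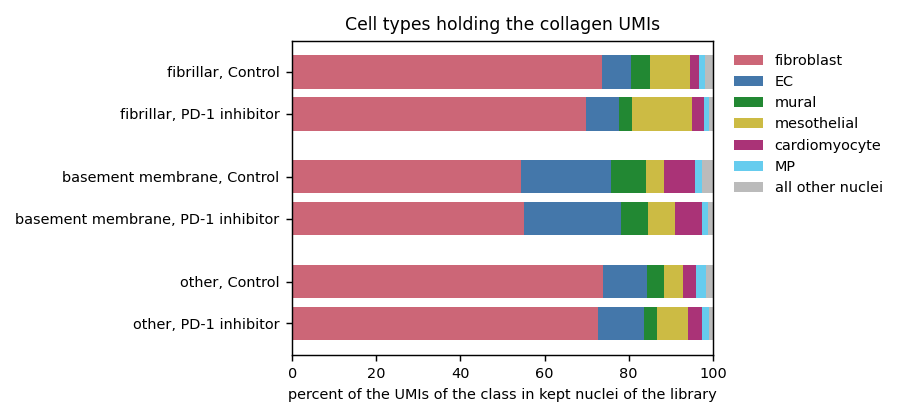
Horizontal bars give the percent of the UMIs of each collagen class (fibrillar, basement membrane, other) that lies in each cell type, for the Control and the treated library. Fibroblasts hold 73.6% and 69.8% of the fibrillar UMIs and 54.4% and 55.1% of the basement membrane UMIs, and the mesothelial part of the fibrillar bar goes from 9.56% to 14.3%.

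Among cell types with at least 20 UMIs of a gene, fibroblasts had the highest level for 22 genes in the Control library and for 20 in the treated library. These are out of 34 genes with at least 1 such type. The highest type was the same in both libraries for 23 genes. Col11a1, Col24a1, Col8a2 and Col26a1 reached 20 UMIs in fibroblasts alone and Col6a5 in mesothelial cells alone. These genes enter the counts without a second type to compare. Col1a1, a chain of type I collagen, stood at 1326 CPM in Control fibroblasts and 1386 in PD-1 inhibitor fibroblasts, against 278 and 363 in mesothelial cells, the next type. Col1a2, its partner chain, followed the same order with 1584 and 1702 in fibroblasts and 712 and 783 in mesothelial cells. Col3a1, the type III chain, reached 3315 and 3529 in fibroblasts and 2652 and 2700 in mesothelial cells, so mesothelial cells were closer to fibroblasts for Col3a1 than for Col1a1. Col8a1, a short-chain collagen of vessel walls and valves, was 12.4- and 12.5-fold higher in fibroblasts than in ECs, the second type. Col15a1, a proteoglycan collagen at the outer face of basement membranes, was 8.51-fold higher in fibroblasts than in mural cells in the Control library and 17.9-fold higher in the treated library, where the mural level of 94.3 CPM was not told apart from the 63.0 CPM of T and B cells.

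Several chains were highest outside fibroblasts. Col23a1, a transmembrane collagen, was at 185 and 168 CPM in ECs, 14.1- and 11.7-fold over the next type. Col13a1, also transmembrane, was highest in ECs at 13.8 and 17.6, but its Control interval overlapped that of cardiomyocytes. In the treated library its EC level was not told apart from the 3.71 CPM of T and B cells. Col4a2, which pairs with Col4a1 in the common type IV network, was highest in mural cells at 798 and 752, 1.73- and 1.71-fold over fibroblasts. Col4a1 did not separate mural cells (1029 and 917) from fibroblasts (1001 and 976) in either library. Col18a1, the precursor of endostatin, was highest in glial cells at 388 and 633 CPM, a type with only 32 and 10 nuclei. Col6a5 reached 20 UMIs in mesothelial cells alone, at 19.0 and 12.6 CPM, so there was no second type to compare. Col25a1, a transmembrane collagen, was highest in mural cells at 62.9 and 55.7 with intervals that overlapped those of ECs.

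Some chains were highest in different cell types of the 2 libraries. Col4a5 was highest in cardiomyocytes of the Control library, at 254 CPM, with mesothelial cells at 246 and an overlapping interval. In the treated library cardiomyocytes stood at 141 and mesothelial cells at 262, with fibroblasts at 233 and an interval that overlapped the mesothelial one. Col4a3 and Col4a4 were highest in Control fibroblasts and in PD-1 inhibitor ECs, and in the treated library the intervals of the 2 types overlapped for both genes. Col16a1 was at 77.1 in Control fibroblasts and 74.8 in Control mesothelial cells, which overlapped, and at 43.1 and 96.8 in the treated library, which did not.

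**Figure D2:**
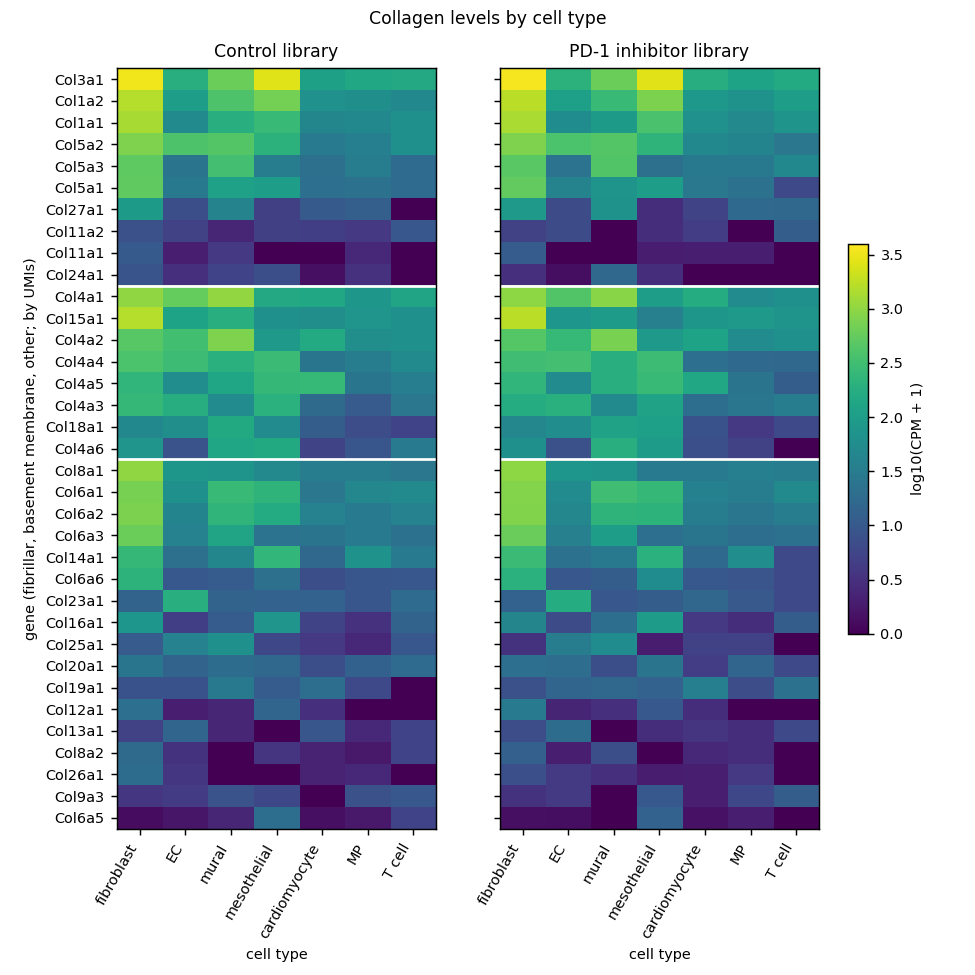
Color gives log10 of CPM plus 1 for the 35 collagen genes (rows, by class and total UMIs, white lines between classes) in 7 cell types (columns) of the Control and the treated library. Most fibrillar and type VI chains are brightest in fibroblasts, Col4a2 is brightest in mural cells, and Col23a1 stands out in ECs at 185 and 168 CPM.

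Free RNA from broken cells can give any nucleus collagen UMIs, so T and B cells, which are not known to make these collagens, were taken as the background. Col3a1 had a UMI in 81.1% and 85.2% of fibroblast nuclei and in 9.75% and 11.1% of T cell nuclei, at median depths of 1044 and 1088 UMIs in fibroblasts and 849 and 884 in T cells. After each nucleus was thinned to 500 UMIs the shares were 65.5% and 70.8% in fibroblasts and 5.93% and 4.76% in T cells. Of the 35 genes, 23 lay above the T and B cell level in both libraries in fibroblasts, 17 in mural cells, 16 in mesothelial cells, 10 in ECs, 3 in cardiomyocytes and 1 in mononuclear phagocytes (MP). The 10 in ECs were Col4a1, Col4a2, Col4a3, Col4a4, Col4a5, Col5a2, Col8a1, Col18a1, Col23a1 and Col25a1. The 3 in cardiomyocytes were Col4a1, Col4a2 and Col4a5, and the gene in MP was Col14a1. Col1a1, Col1a2 and Col3a1 were not above this background in ECs or cardiomyocytes in both libraries.

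In fibroblasts most collagen genes stood close to level between the libraries. Of the 28 read there, 1 was past the fold higher (Col12a1) and 4 were past it lower (Col4a3, Col8a2, Col16a1 and Col26a1). Over all 10577 genes read in fibroblasts 18.1% were past the fold higher and 15.3% lower, so 1 of 28 is a smaller share than among all genes for higher values, and 4 of 28 is close to the share among all genes for lower values. These shares differ by gene span. In the quintile of genes with the longest span, which holds 18 of the 28, they were 6.38% and 26.5%. There 2 of the 18 were lower. The median log2 ratio of the 28 was -0.04, and that of all genes was -0.00. The intervals of 7 collagen genes lay above 0 (Col3a1, Col1a2, Col15a1, Col6a1, Col6a2, Col12a1 and Col14a1) and those of 5 lay below 0 (Col4a3, Col4a4, Col5a3, Col16a1 and Col26a1).

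The fibrillar chains of fibroblasts differed little between the libraries. Col1a1 counted 3937 UMIs in Control and 3440 in treated nuclei, a log2 ratio of 0.06 (95% interval -0.00 to 0.13). Col3a1 counted 9839 and 8757, a log2 ratio of 0.09 (0.05 to 0.13), and Col1a2 4701 and 4225, a log2 ratio of 0.10 (0.04 to 0.16). Col5a1, Col5a2 and Col5a3, chains of the type V collagen that starts and limits fibrils, had log2 ratios of 0.04, 0.01 and -0.11. Col27a1 stood at 89.9 and 85.8 CPM, and Col11a1 at 9.43 and 10.1. None of the 8 fibrillar chains read in fibroblasts was past the fold, and the sum of all 10 fibrillar members went from 8177 to 8537 CPM, a log2 ratio of 0.06 (0.04 to 0.09). Col1a1 had a UMI in 57.7% of Control and 62.1% of PD-1 inhibitor fibroblast nuclei.

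Basement membrane chains in fibroblasts split by chain pair. Col4a1 and Col4a2, which form the common network, had log2 ratios of -0.04 and -0.07, with intervals that include 0. Col4a3 and Col4a4, chains of the network found in kidney glomeruli and a few other sites, were both lower in the treated library. Col4a3 counted 733 UMIs in Control and 422 in treated nuclei, or 247 and 170 CPM, a log2 ratio of -0.54 (-0.71 to -0.36). Col4a4 counted 1119 and 777, a log2 ratio of -0.27 (-0.40 to -0.13), which did not pass the fold. The start sites of this pair are 72 bases apart, on opposite strands of chromosome 1. Col4a5 had a ratio of -0.02 and Col4a6, its neighbour 1309 bases away on chromosome X, of -0.22 (-0.53 to 0.08). Col15a1 stood at 1606 and 1687 CPM and Col18a1 at 47.2 and 45.9. The 6 type IV chains together went from 2396 to 2195, a log2 ratio of -0.13 (-0.18 to -0.08).

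Among the other chains in fibroblasts, Col6a1 and Col6a2, chains of the beaded microfibrils around cells, had log2 ratios of 0.22 (0.13 to 0.31) and 0.12 (0.03 to 0.20), and Col6a3 and Col6a6 had -0.08 and -0.08. Col14a1, which sits on the surface of fibrils, stood at 246 and 285 CPM (log2 ratio 0.21, 0.06 to 0.37). Col8a1 was nearly level at 997 and 975. Col16a1, another fibril-associated chain, was lower, with 229 UMIs in the Control and 107 in the treated library and a log2 ratio of -0.84 (-1.18 to -0.50). Thinning every nucleus to 500 UMIs moved that ratio to -0.42. Col26a1 counted 53 and 16 UMIs and Col8a2 50 and 29, so both were past the fold toward lower on few counts. Col12a1 counted 59 and 72 UMIs (19.9 and 29.0 CPM) and was the gene past the fold toward higher.

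**Figure D3:**
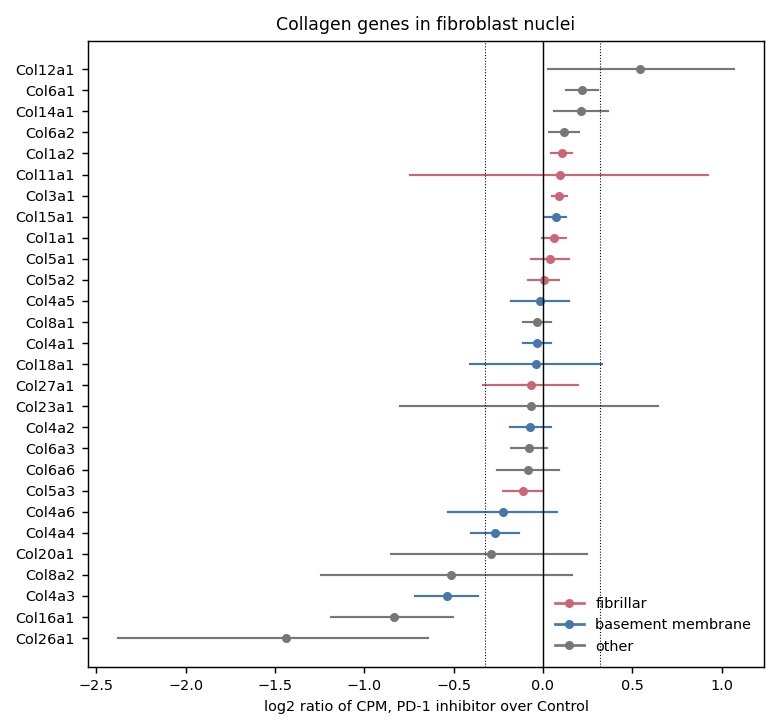
Points give the log2 ratio of CPM, PD-1 inhibitor over Control, for the 28 collagen genes with at least 50 UMIs in fibroblasts, colored by class, with lines for the 95% counting interval and dotted lines at a log2 ratio of 0.32 either way. Most fibrillar and basement membrane chains lie near 0, and Col4a3 (-0.54), Col16a1 (-0.84) and Col26a1 (-1.44) lie to the left with intervals clear of 0.

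The fibroblast nuclei formed 3 clusters, named here by their leading genes. The Rgs17/Fbn2 cluster held 57.5% of Control and 48.1% of PD-1 inhibitor fibroblasts, the Myoc/Cilp cluster, which also leads with Pi16 and Cd248, 37.8% and 47.4%, and a Chad/Wif1 cluster with 4 of 5 valve interstitial markers 4.71% and 4.47%. Fibrillar chains were higher in the Myoc/Cilp cluster, at 10485 and 10603 CPM, than in the Rgs17/Fbn2 cluster, at 6764 and 6747. Within each of these 2 clusters the fibrillar log2 ratio was near 0, at 0.02 (-0.02 to 0.05) and -0.00 (-0.05 to 0.04). With the same mix of clusters in both libraries the fibrillar ratio of fibroblasts was -0.00 in place of 0.06. Col4a3, by contrast, was lower within both large clusters, at 248 and 169 CPM in Myoc/Cilp (log2 ratio -0.55, -0.82 to -0.29) and 261 and 179 in Rgs17/Fbn2 (-0.54, -0.79 to -0.30). Col4a4 had -0.35 and -0.25 in them.

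Col16a1 was lower in both large clusters as well, with log2 ratios of -0.60 (-1.06 to -0.16) in Myoc/Cilp and -0.94 (-1.62 to -0.33) in Rgs17/Fbn2. In the Chad/Wif1 cluster, with 116 Control and 88 PD-1 inhibitor nuclei, it counted 40 and 6 UMIs. That cluster differed in other chains too. Col1a1 stood at 1548 and 1071 CPM there (log2 ratio -0.53, -0.81 to -0.26) and Col1a2 at 1651 and 1209 (-0.45, -0.71 to -0.19). Col8a1 was higher, at 419 and 747 (0.83, 0.41 to 1.27), and Col4a4 counted 15 and 45 UMIs (1.41, 0.57 to 2.39). The median depth of this cluster was 995 UMIs in the Control and 1715 in the treated library, and the part of depth in these ratios was not tested.

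Over all ECs no type I or III chain lay above the background in both libraries, while Col5a2, a type V chain, did, at 389 and 382 CPM (log2 ratio -0.03). In the EC cluster led by Wnt9b and Hapln1, type I and III chains summed to 370 and 570 CPM (log2 ratio 0.62, 0.35 to 0.90). Their sum in T and B cells was 280 and 297. This EC cluster held 406 and 268 nuclei with median depths of 1001.5 and 1374.5 UMIs, and the part of depth in its ratio was not tested. In the other EC clusters the log2 ratio of the type I and III sum ran from -0.15 (Nrg1/H19) to 0.33 (Mmrn1/Reln), with intervals that include 0. The sum of all fibrillar chains was lower in the Nrg1/H19 cluster, at 1039 and 921 CPM (-0.17, -0.29 to -0.06). It had 0.14 (-0.03 to 0.32) in the Wnt9b/Hapln1 cluster. In the remaining EC clusters it ran from 0.09 (led by Aplnr) to 0.18 (Mmrn1/Reln), with intervals that include 0. Col1a1 stood at 51.1 and 54.6 CPM in ECs against 62.7 and 63.0 in T and B cells, and Col1a2 at 101 and 108 against 51.5 and 108. Col3a1 stood at 180 and 202 against 166 and 126, a log2 ratio in ECs of 0.16 (-0.01 to 0.33). Col5a1 counted 83 and 117 UMIs, a log2 ratio of 0.53 (0.12 to 0.96), at 27.9 and 40.4 CPM against 17.9 and 11.1 in T and B cells. Over the same nuclei the 13 fibroblast markers summed to 2694 CPM in the Control and 3763 in the treated library, and their part in the fibrillar values of ECs was not tested. Dcn and Lum, both among these markers, stood at 1279 and 2140 and at 219 and 390 in ECs. In fibroblasts the sum of the 13 markers was 35678 and 44507.

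The basement membrane chains of ECs were lower in sum, at 1582 and 1403 CPM (log2 ratio -0.17, -0.23 to -0.11). Col4a1 counted 1643 and 1228 UMIs, or 552 and 424 CPM, a log2 ratio of -0.38 (-0.49 to -0.27). Col4a2 counted 955 and 743, a log2 ratio of -0.32 (-0.46 to -0.18). Col15a1 counted 357 and 225, a log2 ratio of -0.63 (-0.87 to -0.38), and in the treated library its 77.7 CPM were near the 63.0 of T and B cells. Col4a3 and Col4a4 went the other way, with 0.14 (-0.03 to 0.32) and 0.20 (0.07 to 0.34). Col4a1 and Col4a2 also lie head to head, on chromosome 8, where their annotated starts overlap.

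Single type IV chains of ECs moved with the mix of EC clusters, while the log2 ratio of the basement membrane sum stayed between -0.20 and -0.14 under 14 other settings. That sum had -0.23 (-0.32 to -0.13) within the Nrg1/H19 cluster and -0.13 (-0.24 to -0.02) within the Aplnr cluster. It had 0.14 (-0.03 to 0.31) within the Wnt9b/Hapln1 cluster. The Nrg1/H19 cluster, with 5 of 5 endocardial markers, held 38.6% of Control and 52.4% of PD-1 inhibitor ECs, and the Aplnr cluster, with 5 of 6 capillary markers, 35.3% and 27.6%. Col4a1 was at 912 and 817 CPM in the Aplnr cluster and at 328 and 238 in the Nrg1/H19 cluster, and Col4a2 at 664 and 652 and at 109 and 98.6. Col4a4 had the opposite order, at 42.2 and 31.8 in the Aplnr cluster and 574 and 545 in the Nrg1/H19 cluster. With the same mix of clusters in both libraries the log2 ratios became -0.20 for Col4a1 and -0.05 for Col4a2, neither past the fold, while Col15a1 stayed past it at -0.41. Col4a3 and Col4a4 became -0.14 and -0.08, so their direction turned. Within the Nrg1/H19 cluster Col4a1 had -0.46 (-0.68 to -0.25), Col4a3 -0.27 (-0.47 to -0.08) and Col6a1 -0.68 (-1.13 to -0.24). Within the Aplnr cluster Col4a1 had -0.16 (-0.32 to -0.00) and Col15a1 -0.44 (-0.77 to -0.11).

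Of 24 collagen genes read in ECs, 4 were past the fold higher (Col19a1, Col5a1, Col20a1 and Col13a1) and 3 lower (Col15a1, Col4a1 and Col4a2). Over all 10700 genes read in ECs 18.6% were past it higher and 15.6% lower, and the shares of collagen genes were 16.7% and 12.5%. Beside Col5a1, the genes that were higher counted few UMIs, with 21 and 40 for Col19a1, 38 and 54 for Col20a1 and 41 and 51 for Col13a1. Col23a1, the endothelial transmembrane chain, had a log2 ratio of -0.14 (-0.32 to 0.04), and of -0.30 with the same mix of clusters.

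**Figure D4:**
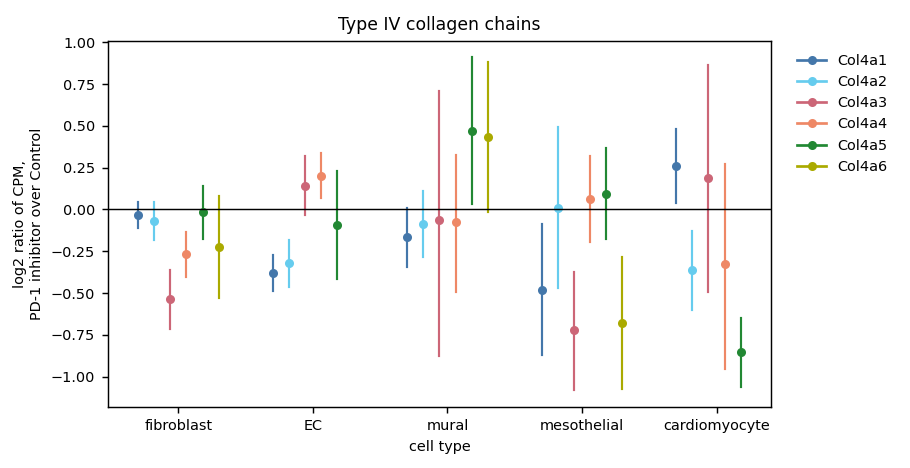
Points give the log2 ratio of CPM, PD-1 inhibitor over Control, for the 6 type IV chains in 5 cell types (chains with at least 50 UMIs in that type), with lines for the 95% counting interval. Col4a3 lies below 0 in fibroblasts (-0.54) and mesothelial cells (-0.72), Col4a1 and Col4a2 lie below 0 in ECs (-0.38 and -0.32), and Col4a5 lies below 0 in cardiomyocytes (-0.85).

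In mural cells type I chains were lower in the treated library and type III was not. Col1a2 counted 269 and 126 UMIs, or 393 and 270 CPM, a log2 ratio of -0.54 (-0.86 to -0.23), and Col1a1 counted 121 and 42, a log2 ratio of -0.96 (-1.52 to -0.46). Col3a1 stood at 608 and 611. Both mural clusters showed the same direction for type I. In the pericyte-like Lin7a/Vtn cluster Col1a1 had -0.78 (-1.48 to -0.16) and Col1a2 -0.35 (-0.76 to 0.05), and in the smooth muscle-like cluster, with Cnn1 and Myh11 among its leading genes and 104 and 54 nuclei, they had -1.12 (-2.16 to -0.26) and -0.67 (-1.22 to -0.18). Col15a1 was lower too, with 129 and 44 UMIs (-0.99, -1.53 to -0.50). In the treated library Col1a1 and Col15a1 were not above the 63.0 CPM that each had in T and B cells beyond counting error, while Col1a2 was above that level in both libraries. With at least 500 genes per nucleus the Col1a1 ratio was -0.38. The 13 fibroblast markers summed to 5210 and 4923 CPM in mural cells, and their part in these values was not tested.

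Col4a5 and Col4a6, which form a network of smooth muscle basement membranes, were higher in mural cells, with log2 ratios of 0.47 (0.03 to 0.91) and 0.44 (-0.01 to 0.88). Both were concentrated in the smooth muscle-like cluster, where Col4a5 stood at 548 and 992 CPM (0.86, 0.40 to 1.31) and Col4a6 at 602 and 910 (0.60, 0.14 to 1.05). Of 20 collagen genes read in mural cells 3 were past the fold higher and 5 lower, against 21.0% and 22.3% of all 5141 genes. The third higher gene was Col27a1, and the lower ones beside type I and Col15a1 were Col5a1 and Col18a1.

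In mesothelial cells, which cover the heart's surface, Col1a1 counted 219 and 375 UMIs, or 278 and 363 CPM, a log2 ratio of 0.39 (0.14 to 0.63), while Col3a1 stood level at 2652 and 2700. Col6a2 had 0.33 (0.02 to 0.66). Col4a3 counted 154 and 122 UMIs, a log2 ratio of -0.72 (-1.08 to -0.37), Col4a6 121 and 99 (-0.68, -1.08 to -0.28) and Col4a1 115 and 108 (-0.48, -0.87 to -0.09). Thinned to 500 UMIs per nucleus, these ratios were -0.40 for Col4a3, -0.49 for Col4a6 and -0.50 for Col4a1. Col4a4 and Col4a5 had 0.06 and 0.09, so Col4a3 and Col4a4 did not move as a pair here. Of 19 collagen genes read 5 were past the fold higher and 5 lower, against 17.3% and 18.6% of all 7266 genes. The others past the fold counted fewer UMIs. Col16a1 (59 and 100), Col18a1 (42 and 110) and Col6a6 (16 and 57) were higher, and Col15a1 (49 and 37) and Col8a1 (38 and 31) were lower. The total of mesothelial UMIs was 788975 in the Control and 1033066 in the treated library.

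Cardiomyocytes held Col4a5, at 254 and 141 CPM against 29.1 and 14.8 in T and B cells. It counted 614 UMIs in the Control and 283 in the treated library, a log2 ratio of -0.85 (-1.06 to -0.65). A UMI of it was seen in 25.6% and 16.0% of cardiomyocyte nuclei. The Acta1/Xirp2 cluster, where mitochondrial RNA was 11.1% and 10.1% of UMIs, had 69.4 and 43.2 CPM (-0.68, -1.34 to -0.04). That cluster held 486 of 1273 Control and 499 of 1081 treated cardiomyocytes, and without it the ratio was also -0.68, so the ratio of all cardiomyocytes includes a difference in the mix of clusters. Thinned to 500 UMIs per nucleus, the ratio of all cardiomyocytes was -0.39. Col4a2 counted 380 and 246 UMIs (-0.36, -0.60 to -0.13), and Col4a1 345 and 344 (0.26, 0.04 to 0.48), so these partner chains had ratios of opposite sign. Within the Acta1/Xirp2 cluster both were below 0, at -0.65 and -0.16.

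Fibrillar chains of cardiomyocytes were higher in the treated library but did not lie above the T and B cell level in both libraries. Col3a1 stood at 109 and 173 CPM (log2 ratio 0.66, 0.43 to 0.90) against 166 and 126 in T and B cells. Col1a1 stood at 43.9 and 64.6 (0.56, 0.18 to 0.94) against 62.7 and 63.0, Col1a2 at 65.0 and 83.4 (0.36, 0.04 to 0.68) against 51.5 and 108, and Col15a1 at 58.4 and 79.0 (0.44, 0.10 to 0.77) against 64.9 and 63.0. The fibrillar sum had a log2 ratio of 0.52, which was 0.07 when doublets were kept, and Col1a2 turned to -0.18 there. The 13 fibroblast markers summed to 2055 and 2520 CPM in cardiomyocytes and the 12 EC markers to 530 and 734, and their part in these values was not tested. Of 19 collagen genes read 9 were past the fold higher and 3 lower, against 21.9% and 22.8% of all 9185 genes. The 9 were the fibrillar chains Col1a1, Col1a2, Col3a1, Col5a1, Col5a2 and Col5a3 with Col15a1, Col6a1 and Col19a1. Without the Acta1/Xirp2 cluster Col1a2 had 0.81.

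**Figure D5:**
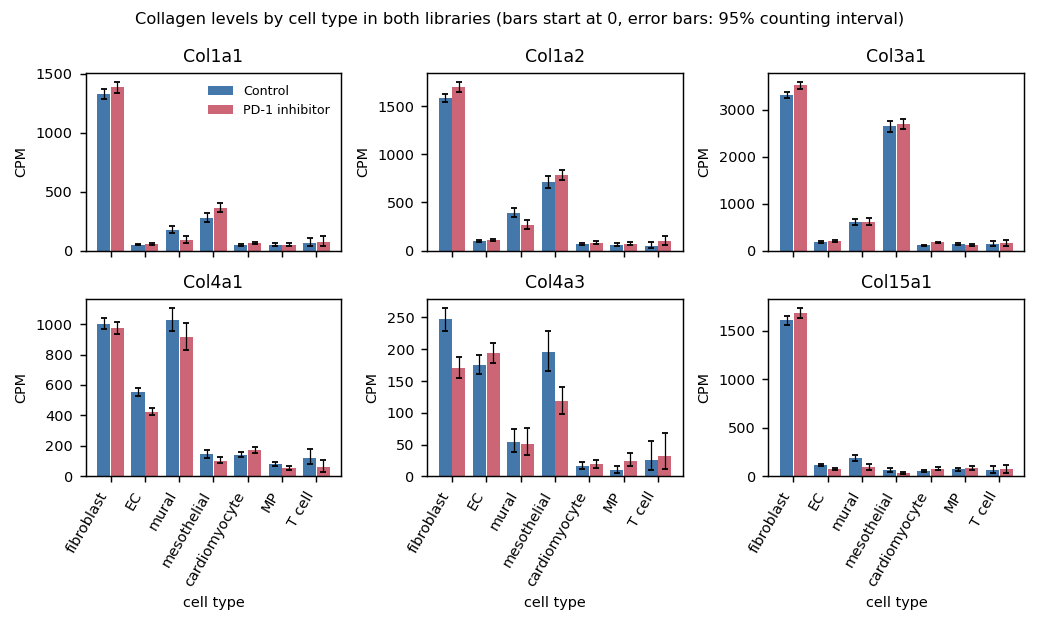
Bars give CPM of 6 collagen genes in 7 cell types of the Control and the treated library, with 95% counting intervals as error bars and axes that start at 0. Col1a1 is at 1326 and 1386 in fibroblasts and under 100 in ECs and cardiomyocytes of both libraries, Col4a3 is at 247 and 170 in fibroblasts, and Col4a1 is at 552 and 424 in ECs.

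Over all kept nuclei the collagen genes summed to 5820 CPM in the Control library and 5974 in the treated library, a log2 ratio of 0.04. Fibrillar chains went from 2736 to 2958 (0.11), basement membrane chains from 1830 to 1725 (-0.09) and the others from 1255 to 1291 (0.04). With the cell types of the treated library weighted to the Control shares of nuclei these log2 ratios were 0.08, -0.11 and 0.02. Type IV chains alone went from 1321 to 1214, a log2 ratio of -0.12, and -0.15 at the Control shares.

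Genes that process collagen were read in fibroblasts as 6 lists. Over all genes read in fibroblasts 18.1% were past the fold higher and 15.3% lower. Of 17 genes read for chain assembly and hydroxylation 2 were past it higher and 1 lower. P3h2, which hydroxylates prolines of type IV collagen, stood at 42.4 and 85.4 CPM (log2 ratio 1.01, 0.68 to 1.34), and P4ha1, a subunit of the main prolyl hydroxylase, at 290 and 191 (-0.60, -0.76 to -0.44). Ppib, a prolyl isomerase of the same machinery, stood at 196 and 280. Of 8 genes for propeptide processing 2 were higher and 2 lower, and Pcolce, an enhancer of procollagen cleavage, stood at 803 and 1025 (0.35) while Adamts3, which removes amino-terminal propeptides, stood at 46.5 and 35.1 (-0.40). Of 5 cross-linking genes 1 was higher, the lysyl oxidase gene Lox at 39.4 and 59.6 (0.60, 0.24 to 0.96), and Loxl2 stood at 293 and 335 (0.19).

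Among 11 fibril partners 4 were higher and 1 lower, beside the same 18.1% and 15.3% of all genes. Fmod, a small proteoglycan on fibrils, stood at 29.6 and 49.6 CPM (0.74, 0.33 to 1.15) and Lum, a related one, at 826 and 1289 (0.64, 0.57 to 0.72). Dcn, which regulates fibril width, went from 8533 to 12478 (0.55), and Fn1, the fibronectin gene, from 249 to 173 (-0.52, -0.70 to -0.35). Dcn and Lum are among the fibroblast markers and were also higher in ECs, so the higher marker sums given above include them. Not all markers were higher in ECs. Ddr2 and Fbln1, also on the marker list, stood there at 35.6 and 17.6 CPM and at 42.7 and 40.8. Of 8 turnover genes 2 were higher, the membrane metalloprotease gene Mmp14 at 288 and 374 (0.38) and the collagenase gene Ctsk at 47.5 and 61.2 (0.37). Of 7 receptors 0 were higher and 2 lower, with Ddr2, a collagen-sensing kinase, at 480 and 378 (-0.35, -0.47 to -0.23) and Ddr1 at 37.1 and 44.3 (0.26). In ECs the counts higher and lower were 4 and 3 of 17 for assembly, 2 and 0 of 7 for processing, 1 and 2 of 5 for cross-linking, 3 and 0 of 10 for fibril partners, 3 and 1 of 8 for turnover and 1 and 1 of 4 for receptors, beside 18.6% and 15.6% of all genes. In fibroblasts, over the 6 lists, the median log2 ratio ran from -0.24 for receptors to 0.22 for fibril partners, beside -0.00 over all genes.

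Gene span moved with the ratio across all genes. In fibroblasts the median log2 ratio went from 0.20 in the quintile of genes with the shortest span to -0.17 in the quintile with the longest. Of the 28 collagen genes read in fibroblasts 18 lay in the longest quintile, from 85.0 kb, and their median there was -0.04. In ECs the corresponding medians of all genes were 0.22 and -0.17, and 16 of 24 collagen genes lay in the longest quintile with a median of -0.04. Of all EC genes in that quintile 6.26% were past the fold higher and 28.8% lower, and 3 of the 16 were lower. Col4a3, which spans 135 kb, lay further below 0 in fibroblasts than the median of its quintile, and Col4a1 (-0.04) and Col4a2 (-0.07) lay above it there. The short genes among the members, Col1a1 (16.8 kb) and Col6a1 (17.4 kb), were in the second quintile, where the median of all genes was 0.08. The part of span in the single ratios was not tested.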

How the data were processed

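The data are 2 single-nucleus libraries of mouse heart nuclei, 1 per condition, made with a GEXSCOPE kit. The authors deposited raw UMI counts for each gene in each nucleus. The submitters' processing notes name GRCm38 and mm10, and the aligner and counter are not given in the sources used here. Nuclei under 200 genes or over 20% mitochondrial UMIs were dropped, as were Scrublet doublets, called per library. Counts were scaled to 10000 per nucleus and logged. The 2000 most variable genes without collagens, scaled with a limit of 10 SD, gave 30 principal components, 15 neighbours and Leiden clusters at resolution 1 (scanpy 1.11.5, leidenalg 0.10.2, Python 3.11.15). Scaling was adopted after a first unscaled run had been seen. UMIs were summed by cell type and library, and compared as CPM with exact Poisson and exact conditional binomial 95% intervals. These cover counting error only. The ratio step was run on simulated Poisson counts, which hold no spread between nuclei or libraries and so cannot test for it.

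Genes named with full values were Col1a1 and Col3a1, the 3 with the most UMIs in each class, every member with at least 200 UMIs in a cell type whose log2 ratio is beyond 0.32 with an interval that leaves 0, the cell type with the highest level of each gene, and, of each pathway list, the 2 genes with the largest ratio among those with at least 200 UMIs. Other genes were chosen after their values were seen. The members and lists were chosen with earlier results of these data known. Alternatives changed the filters, doublets, resolution, scaling, depth, cluster mix, minimum UMIs and fold. Gene spans came from GENCODE M21 and matched 32522 of 32589 genes.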

Additional observations from a re-analysis of the deposited data

Results flagged for a closer look

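Among collagen genes with at least 200 UMIs in each of a pair of cell types, 2 had ratios of opposite sign that were both past the fold with intervals that leave 0, and with 1 library per condition neither difference was tested. Col15a1 had a log2 ratio of 0.44 in cardiomyocytes and -0.63 in ECs, a difference of 1.06. Col1a2 had 0.36 in cardiomyocytes and -0.54 in mural cells, a difference of 0.900. Neither gene lay above the T and B cell level in cardiomyocytes in both libraries, and the cardiomyocyte ratio of Col1a2 was -0.18 with doublets kept.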

How the results depend on the processing

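No paired analysis was possible because each condition has 1 library. Of 1032 values recomputed under 20 settings, for 76 results, 926 stayed within their interval or, for counts, within 1.5 times. Of the ratios past the fold with an interval that leaves 0, 1 changed sign, Col1a2 in cardiomyocytes, at -0.18 with doublets kept. Smaller ratios changed sign as well, among them several of the class sums given next. Unscaled variable genes, the Chad/Wif1, Acta1/Xirp2 and shared-barcode settings were chosen after seeing the data. The fibrillar log2 ratio of fibroblasts was 0.11 with at least 500 genes, 0.10 with at most 5% mitochondrial UMIs, 0.0895 thinned to 500 UMIs, -0.00156 with the same mix of clusters and -0.00461 unscaled. Their basement membrane ratio was 0.0261 thinned and 0.0135 unscaled, and that of the other chains 0.0872 with at least 500 genes and 0.0820 thinned. Collagen genes past the fold higher in fibroblasts numbered 2 with at least 20 UMIs, and 0 by the mean over nuclei, with the same mix, at least 200 UMIs, past 1.5-fold, unscaled or without Chad/Wif1. Those lower numbered 7 with at least 20 UMIs, and 2 thinned, with at least 200 UMIs or past 1.5-fold. Past 1.5-fold the background was 5.54% higher and 4.07% lower in fibroblasts, and 6.01% and 4.47% in ECs. The share of collagen UMIs in fibroblasts was 64.6% and 62.7% (Control and PD-1 inhibitor) with at least 500 genes, 66.5% and 64.7% with at most 5% mitochondrial UMIs, 63.8% and 63.4% with doublets kept, 36.4% and 43.8% unscaled, and 68.7% in the PD-1 inhibitor library when thinned. In ECs the fibrillar ratio was 0.17 thinned and -0.0359 with the same mix. There 1 collagen gene was higher when thinned, with at least 200 UMIs or past 1.5-fold, and 1 lower past 1.5-fold. The ratio of all collagen genes in cardiomyocytes was -0.10 with at most 5% mitochondrial UMIs or with doublets kept, -0.0644 thinned and -0.0540 by the mean over nuclei. Over the library, all collagen genes had 0.0668 and fibrillar chains 0.15 with at most 5% mitochondrial UMIs, fibrillar chains 0.0819 by the mean over nuclei, and basement membrane chains -0.0455 thinned and -0.12 as type IV alone. The cause was not tested for these. Depth limits the chains with few UMIs, for which only large ratios leave 0.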

Other observations

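Some small cell types had high levels of single collagen chains, and glial cells and adipocytes were not set against the T and B cell background. Glial nuclei, 32 and 10 in number, had Col5a3, a type V chain, at 582 CPM in the Control library, where fibroblasts stood at 510 with an overlapping interval. In the treated library Col5a3 was highest in fibroblasts at 471, with mural cells next at 418. Adipocytes had Col27a1, a fibrillar chain of cartilage and other tissues, at 183 in the Control library against 89.9 in fibroblasts, but their nuclei numbered 154 in the Control and 16 in the treated library. The treated Col27a1 level was 71.4 CPM in adipocytes and 85.8 in fibroblasts, with overlapping intervals. In the arterial-like EC cluster led by Sema3g, Col8a1 stood at 616 and 789 CPM (log2 ratio 0.35, -0.13 to 0.85), against 80.4 and 77.7 over all ECs.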
